A study of Sus scrofa domesticus with 8 samples.

Results

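The change in gene expression of porcine ovarian granulosa cells between 48 h and 96 h of culture was described over all features of the array, and each change was followed to 144 h. The comparison used 4 of the 8 arrays in the series, 2 at 48 h and 2 at 96 h, which were taken by the time point in the labels. The 2 arrays at 144 h served to say whether a change was kept. The 2 at 0 h, from cells before culture, entered the shared estimate of the spread. They also entered the choice of 1 feature per gene and the check of the cells against their label. Ovaries of 43 slaughtered gilts of crossbred Landrace stock gave the cells, and these animals weighed 98 kg at a median age of 170 days. Culture medium for every group was DMEM with antibiotics and 2% fetal bovine serum, at 37 °C under 5% CO2. The labels name no hormone and no other treatment, so the groups differ by time in culture. RNA was hybridised to Affymetrix whole-transcript arrays, and the values are log2 intensities, on which a difference of 1 is a 2-fold change.

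Granulosa cells line the follicle and feed and signal to the oocyte. Under follicle-stimulating and luteinising hormone they make steroids, and after ovulation they turn into luteal cells. They also make inhibin and follistatin, which act on activin signalling. Taken out of the follicle and spread on plastic in serum, such cells lose the pituitary hormones and the follicle wall, attach, flatten and can take on features of fibroblasts or contractile cells.

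Whether both arrays of a time hold RNA of different animals or cultures is not said in the labels. The p-values then speak only to the spread between the arrays at hand, and that spread may be technical. The arrays had medians between 4.52 and 4.63. Over all features, replicate arrays differed with an SD of 0.265 at 48 h, 0.162 at 96 h and 0.382 at 144 h. The interquartile range of the differences over all 27558 features was 0.540 between 96 h and 48 h and 0.317 between 144 h and 48 h, so the 96 h arrays lay farther from the 48 h arrays than the later 144 h arrays did. No label names an array batch, and a batch that held the 96 h arrays alone cannot be told apart from the time. Of 934 genes with more than 1 feature, 210 had at least 2 features called between 96 h and 48 h, and in 10 of these the features were called in opposite directions. At 144 h against 48 h, 79 genes had at least 2 called features and 0 were called both ways. Levels at 96 h and at 144 h are therefore given side by side below.

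The cells were checked against their label. Follistatin (FST), the luteinising hormone receptor (LHCGR) and the transcription factor GATA6 had mean levels of 9.78, 10.24 and 10.25 at 48 h, and the inhibin subunit gene INHBA stood at 10.35. The lower quartile of the 8 arrays ran from 3.13 to 3.25, and a group mean at or below 3.25 is called dim below, with no fold given against it. AMH, the anti-Müllerian hormone of small follicles, was dim, with a mean of 3.17. FSHR, CYP19A1, INHA and FOXL2 lacked a named feature, and they are not analysed here. HSD17B1, another granulosa gene, stood at 10.84 at 0 h and 5.68 at 48 h. The summed level of the 19 measured granulosa list genes was 165.75 and 166.05 on the 0 h arrays and 147.48 and 147.35 on the 48 h arrays. ACTA2 (10.67) and COL1A1 (8.96), of the theca marker list, were also high at 48 h, and LHCGR is on that list too. These levels alone therefore do not settle the cell type.

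The middle of the culture period changed many transcripts in both directions, and most of these changes were not found again at 144 h. At an adjusted p below 0.05 (limma, Benjamini-Hochberg over all features), 3683 features were higher at 96 h than at 48 h, 13.4% of those tested, and 4406 were lower, 16.0%. Without 96 h replicate 1 the counts were 1818 and 2380, without 96 h replicate 2 they were 1887 and 2552, and without 48 h replicate 1 they were 2244 and 2970. Among 10707 genes with a named feature, 1534 were higher, or 14.3%, and 1819 were lower, or 17.0%. The median difference over all named genes was 0.01. A difference of at least 2-fold was found in 433 of the higher and 583 of the lower genes.

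A change was counted as kept when the 144 h arrays also differed from the 48 h arrays in the same direction at an adjusted p below 0.05. This held for 393 higher genes, 25.6% of the 1534, and for 406 lower genes, 22.3% of the 1819. At 144 h against 48 h as a whole, 5.53% of named genes were called higher and 4.89% lower. A change was counted as returned when 144 h was called back against 96 h and was not called against 48 h. This held for 688 higher and 913 lower genes, or 44.9% and 50.2%. Such a gene could still lie off its 48 h level by a difference that missed the threshold. For 444 and 479 genes neither comparison was called, and their state at 144 h was unsettled. Another 9 and 21 genes had reversed, with 144 h called on the other side of 48 h. These comparisons share the 48 h or the 96 h arrays, so the counts are a description and carry no test. Over all features, 790 higher and 900 lower ones were kept, and without 48 h replicate 1 these were 386 and 420.

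Large changes were kept more often than small ones in these counts, but the rule itself favours them. A small change that holds its size can miss the threshold at 144 h. Under 2-fold, 37.4% of higher and 36.6% of lower genes were unsettled, beside 1.37% and 1.16% at 4-fold or more. Of the genes with a difference of at least 4-fold, 57 of 73 higher ones and 56 of 86 lower ones were kept, or 78.1% and 65.1%. Of these, 24 higher and 29 lower genes were kept only in part. Over all features, those without a gene name included, 114 of 230 higher and 128 of 228 lower changes of that size were kept, or 49.6% and 56.1%, so the order of the 2 directions is the other way round there. At 144 h the median higher gene retained 32.8% of its difference from 48 h and the median lower gene 29.9%. Among genes with at least a 2-fold difference the medians were 49.3% and 33.9%. Of the 20 largest rises 18 were kept at 144 h, and of the 20 largest falls 15 were kept. Among these rises 3 genes, and among the falls 2, had uncharacterised symbols and are not named. Every gene list below is to be read beside the 14.3% higher and 17.0% lower of all named genes. In the gene lists below, counts under 3 moved by up to 3 genes when single arrays were left out, and larger counts are given without an array wherever that moved them by over 1.5 times.

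**Figure D1:**
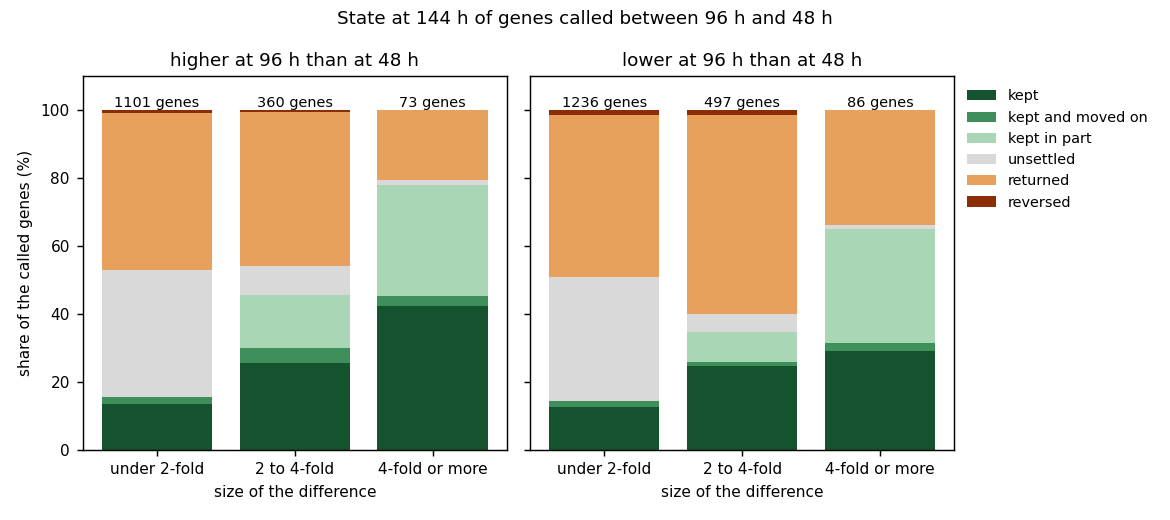
State at 144 h of the named genes called between 96 h and 48 h, as a share of the called genes in percent, by the size of the difference and for higher genes (left) and lower genes (right). Green bands are genes kept in full, kept and moved on or kept in part, grey is unsettled, orange returned and brown reversed. The green bands together hold 57 of 73 genes at 4-fold or more on the left and 56 of 86 on the right.

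Of the receptors, enzymes and transcription factors that mark granulosa cells, 9 fell, and most of these falls were kept. Of 19 measured genes of the granulosa identity list, these 9 were lower at 96 h and 0 were higher by limma, with a median difference of -0.36, and 8 of the 9 were kept at 144 h. At an unadjusted p below 0.05, 1 member was higher, and 2 were called higher without either 144 h array. LHCGR, the receptor through which luteinising hormone raises cyclic AMP, stood at 10.27 and 10.21 on the 48 h arrays, at 5.39 and 4.89 on the 96 h arrays and at 5.89 and 4.99 on the 144 h arrays. Both 96 h arrays lay far below both 48 h arrays, and the 144 h arrays overlapped with those of 96 h. The difference was -5.10 ± 0.28 (SE, n = 2 and 2), a 34.3-fold lower level with an adjusted p of 2.21e-05 (limma). In these bulk samples, fewer cells of a type and less RNA per cell cannot be told apart.

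GSTA1, a glutathione transferase that is abundant in steroid-making cells, had the largest fall of any named gene. Its level was 10.69 and 10.70 at 48 h, 4.02 and 4.30 at 96 h and 2.84 and 3.76 at 144 h. The 3 times did not overlap, and the fall went on after 96 h. The difference between 96 h and 48 h was -6.53 ± 0.26, a 92.5-fold lower level (adjusted p = 6.8e-06), and a second feature of the gene gave -6.75. FST, which binds and blocks activin, was at 9.86 and 9.70 at 48 h, at 5.83 and 5.78 at 96 h and at 6.51 and 7.32 at 144 h. It fell by 3.98 ± 0.23 on the log2 scale (adjusted p = 2.85e-05) and was kept in part, since 144 h was above 96 h and below 48 h.

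Transcription factors of the granulosa list fell less steeply than LHCGR. NR5A2, a nuclear receptor that drives steroid genes, went from 7.59 to 6.07 (adjusted p = 0.00428) and was at 5.45 at 144 h. NR5A1, its close relative known as steroidogenic factor, went from 7.93 to 6.89 (adjusted p = 0.00113) and was back at 7.83 at 144 h, while its second feature differed by -0.26. It was the gene among the 9 whose fall was not kept. GATA6 fell by 1.03 and was at 9.58 at 144 h. The oestrogen receptor gene ESR1, which is no member of that list, went from 6.42 to 4.05 and 5.25, with a difference of -2.37 ± 0.20 (adjusted p = 0.000134). Its 3 other features had differences between -1.50 and -0.47. For ESR2 the means were 4.25 and 4.66 (adjusted p = 0.156), and for INHBA 10.35 and 10.71 (adjusted p = 0.109).

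Of 12 measured genes of steroid synthesis, 5 were lower and 1 was higher at 96 h, with a median difference of -0.12, and 3 and 1 of them were kept. HSD17B1, which turns oestrone into oestradiol, went from 5.68 to 4.01 and was at 4.21 at 144 h (adjusted p = 0.000131 between 96 h and 48 h). FDXR, which passes electrons to the mitochondrial steroid enzymes, fell by 1.49 and was kept in part. HSD3B1, which makes progesterone from pregnenolone, fell from 10.36 to 9.73 (adjusted p = 0.019). Its call was lost without any 1 of the 4 arrays compared, with adjusted p between 0.0535 and 0.115. The gene that rose was STARD4, a carrier of cholesterol within the cell, from 4.84 to 6.95, and it stood at 6.02 at 144 h. The rise of STARD4 counted as kept with an adjusted p of 0.0486 at 144 h against 48 h, but not when any 1 array of 0 h, 48 h or 96 h was left out.

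Of 13 measured genes of ovulation and cumulus expansion, 4 were lower and 2 higher, with a median difference of -0.14 (2 lower without 48 h replicate 1 or either 96 h array). Of the lower genes 3 were kept, or 1 without 96 h replicate 2. The largest difference was that of RGS2, a brake on G protein signalling, which went from 7.23 to 4.20 and 4.27 and so was kept (-3.03 ± 0.17, adjusted p = 2.58e-05). PTGES, a prostaglandin E synthase, fell by 0.72 (adjusted p = 0.00673, and 0.0649 without 96 h replicate 2), and its second feature differed by -0.34. The 2 higher genes were BTC, a ligand of the EGF receptor, and SHAS2, the pig symbol for the hyaluronan synthase HAS2. BTC was dim at 48 h and differed by 1.29 (adjusted p = 0.0161). SHAS2 went from 7.51 to 8.62 (adjusted p = 0.017). Without any 1 of the 4 arrays compared these calls were lost, with adjusted p between 0.0618 and 0.0973 for BTC and between 0.0706 and 0.0866 for SHAS2.

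Genes of the cyclic AMP path, through which the gonadotropins act, were called lower in 10 of 24 cases and higher in 3. Without any 1 of the 48 h or 96 h arrays, 4 were lower and 1 was higher. RGS2 led the falls, followed by ADCY3, an adenylate cyclase, with -1.69 (adjusted p = 0.00255), and RGS5 with -1.28 (adjusted p = 0.00157). RGS5 went from 9.94 to 8.66 and on to 7.09 at 144 h. PDE3A, a phosphodiesterase that breaks down cyclic AMP, moved the other way, from 5.63 to 6.87 and 7.97. The median difference of the list was -0.12, and 3 of the lower and 1 of the higher genes were kept.

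**Figure D2:**
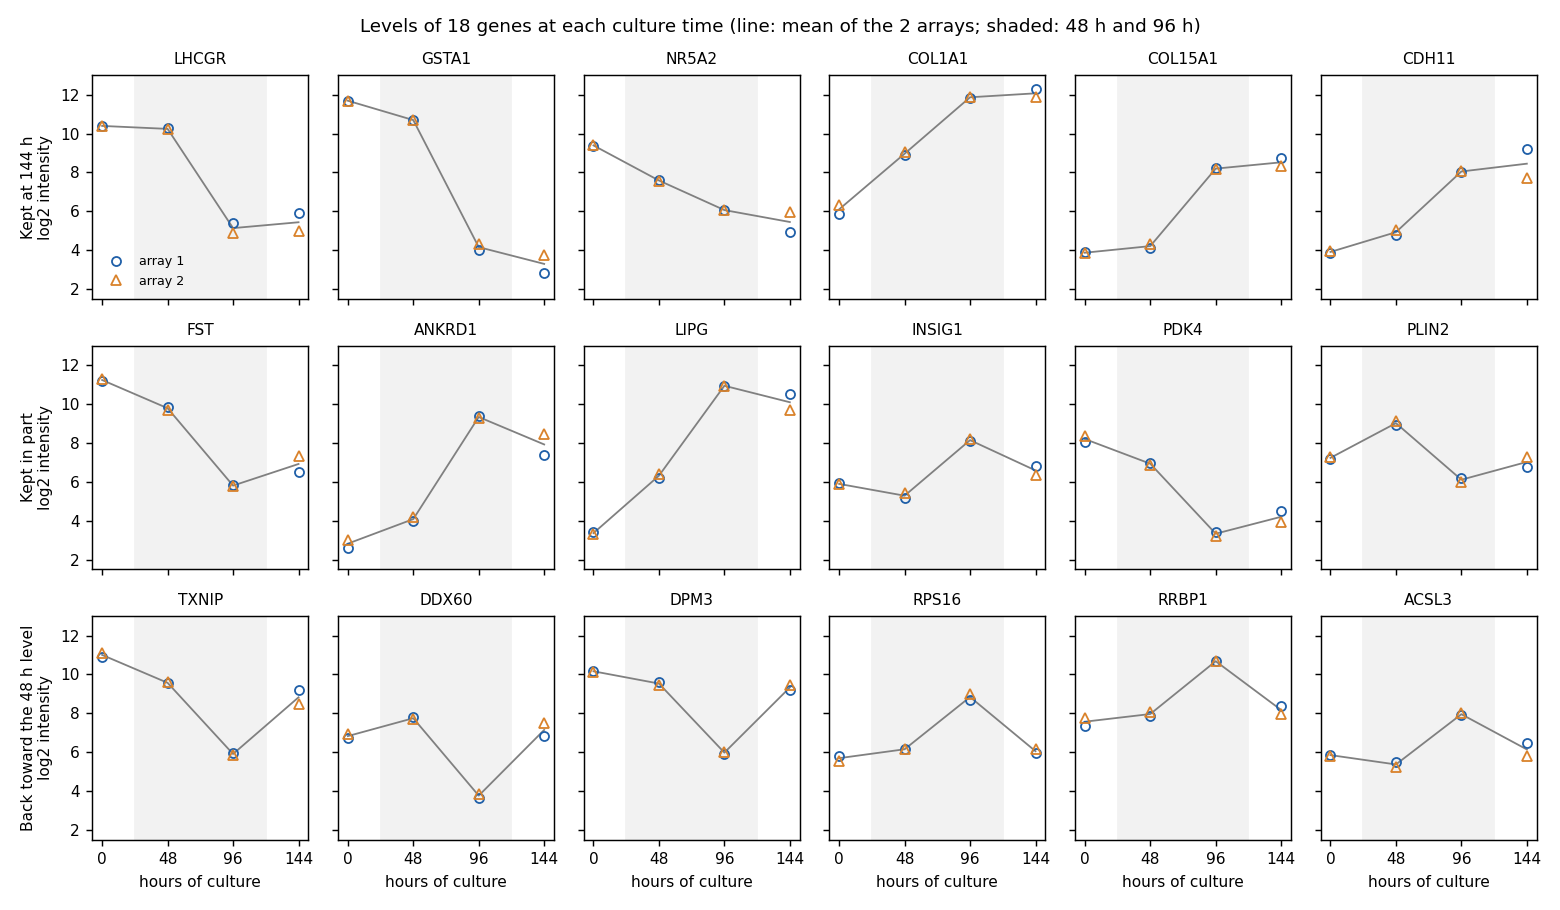
Log2 intensity of 18 genes on each array (circles, array 1; triangles, array 2; lines, means of the 2 arrays) against hours of culture, with 48 h and 96 h shaded. The top row holds genes kept at 144 h such as LHCGR, the middle row genes kept in part such as FST, and the bottom row genes that returned, such as TXNIP with 9.57 at 48 h, 5.91 at 96 h and 8.82 at 144 h.

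Most genes of the contractile cytoskeleton list rose, and most of the rises were kept at 144 h. Of 17 measured members 15 were higher at 96 h and 0 were lower by limma (0 also at an unadjusted p below 0.05), with a median difference of 1.07, and 12 of the 15 were kept. Leaving out 1 array at a time gave between 11 and 15 higher members. CNN1, the smooth muscle protein calponin, stood at 7.06 and 7.27 at 48 h, 9.50 and 9.42 at 96 h and 10.01 and 9.48 at 144 h. All arrays of the 2 later times lay above both 48 h arrays (2.30 ± 0.19 between 96 h and 48 h, adjusted p = 0.000115). CALD1, which binds actin and tropomyosin, rose by 1.66 and was kept in part. MYL9, a myosin light chain, rose by 1.56 and was kept.

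ACTA2, the smooth muscle actin that marks myofibroblasts, went from 10.67 to 11.77 and 11.65 (adjusted p = 0.000461). TAGLN, an actin-binding protein of smooth muscle, went from 10.63 to 11.70 and 11.63 (adjusted p = 0.000315). Both held their rise. MYOCD, the master regulator of smooth muscle genes, did not: it rose from 4.11 to 5.47 (adjusted p = 0.000541) and was at 4.29 at 144 h.

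Fibrillar matrix genes were called higher in 12 of 22 cases and lower in 4, with a median difference of 0.52. Of the higher ones 9 were kept, and of the lower ones 2, while without 48 h replicate 2 or 96 h replicate 1 the list held 2 lower genes. COL1A1, a chain of the main fibre-forming collagen, stood at 8.89 and 9.04 at 48 h, 11.85 and 11.88 at 96 h and 12.28 and 11.86 at 144 h. It rose 7.47-fold (2.90 ± 0.19, adjusted p = 4.13e-05), its second feature differed by 3.18, and the 144 h arrays overlapped with those of 96 h. CTHRC1, a secreted protein of matrix-making cells, went from 4.23 to 7.54 and 6.88. FMOD, which binds collagen fibrils, went from 7.06 to 9.78 and 10.63. FBN1, the main protein of microfibrils, went from 7.12 to 9.58 and 9.08.

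Some matrix genes rose further after 96 h, some held their rise and some did not follow the group. COL3A1 went from 6.21 to 8.06 and 8.80, and LUM, a collagen-binding proteoglycan, from 7.66 to 8.63 and 10.34. FN1, fibronectin, went from 10.70 to 11.61 by 96 h and held this at 144 h, with 11.66. POSTN, a matrix protein that binds integrins, fell from 10.14 to 8.45 (adjusted p = 8.21e-05) and was at 10.05 at 144 h. DCN, decorin, had means of 9.68 and 9.32 (adjusted p = 0.0531) before 11.24 at 144 h. For THBS1 the means were 11.81 and 11.93 (adjusted p = 0.451). LOX, which cross-links collagen, rose by 0.40 (adjusted p = 0.0206), a call that was lost without any 1 of the 4 arrays compared (adjusted p between 0.0602 and 0.134).

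Of 8 measured basement membrane genes 5 were higher and 2 were lower, with a median difference of 0.76. COL15A1, a collagen at the border of basement membranes, went from 4.21 to 8.20 and 8.52, a 15.8-fold rise (3.98 ± 0.15, adjusted p = 6.35e-06). NID2, which links laminin to collagen, rose by 1.61. LAMA4 and LAMA2, laminin chains, moved in opposite directions. LAMA4 went from 3.38 to 4.68 and on to 7.03, while LAMA2 went from 6.84 to 5.58 and 5.79. Without any 1 of the 4 arrays compared, 1 gene of the list was called lower. At 144 h 3 of the higher genes and 1 of the lower genes were kept.

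ANKRD1, a nuclear protein and target of the mechanically regulated factor YAP, had the largest rise of any named gene. It stood at 3.98 and 4.18 at 48 h, 9.39 and 9.28 at 96 h and 7.39 and 8.45 at 144 h. The rise was 38.0-fold (5.25 ± 0.31, adjusted p = 2.83e-05), and part of it was gone at 144 h. Its list, focal adhesion and YAP targets, had 7 higher and 1 lower of 16 genes and a median difference of 0.42. Without 48 h replicate 2 or 96 h replicate 1 there were 4 higher genes, without 96 h replicate 2 there were 3, and without either 144 h array there were 11 higher and 4 lower. ITGA5, the fibronectin receptor subunit, went from 6.97 to 8.42 and 9.13, and ITGA6, a laminin receptor subunit, rose by 0.78, with 1.55 in its second feature. ITGA2, a collagen receptor subunit, had means of 9.78 and 9.13 (adjusted p = 0.0528). Of the higher genes 6 were kept, but 2 were kept when any 1 array of 0 h, 48 h or 96 h was left out.

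Most of the other genes named here from the 20 largest rises code for surface and matrix proteins. ITGA8, an integrin subunit of contractile cells, went from 4.00 and 3.93 at 48 h to 8.30 and 8.35 at 96 h and 9.54 and 8.59 at 144 h. LTBP2, which binds to microfibrils, rose by 4.29, and AEBP1, which binds collagen, by 3.70. CDH11, a cadherin of mesenchymal cells, went from 4.80 and 5.06 to 8.05 and 8.05, and stood at 9.18 and 7.72 at 144 h. COL11A1 rose by 3.05 and NTRK3, a neurotrophin receptor, by 4.13. ANPEP, a surface peptidase, rose by 3.34 and moved on to a difference of 4.65 at 144 h. TMEM255A (4.94), SLC1A1, a glutamate carrier (3.34), UNC45B, a myosin chaperone (3.24), WFDC1 (3.10) and PRUNE2 (3.01) were higher by the log2 differences given. All the genes of this paragraph were kept at 144 h, in full or in part.

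Proteases and their inhibitors moved both ways, with 5 of 19 higher and 7 lower and a median difference of -0.22. Together this was 63.2% of the list, beside 31.3% of all named genes. CTSK, a cathepsin that cuts collagen, went from 7.63 to 9.79 and 9.51. MMP14, a membrane-bound metalloprotease, went from 7.66 to 9.64 and was back at 7.46. SERPINB2, an inhibitor of plasminogen activators, mirrored it, from 8.24 to 6.03 and 8.36. MMP9, a gelatinase also made by leukocytes, went from 6.82 to 4.66 and 5.09. Without 48 h replicate 1 or without either 96 h array 3 genes were called higher. Of the higher and of the lower genes 3 each were kept, with 1 of the lower genes kept when 48 h replicate 1 was left out.

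**Figure D3:**
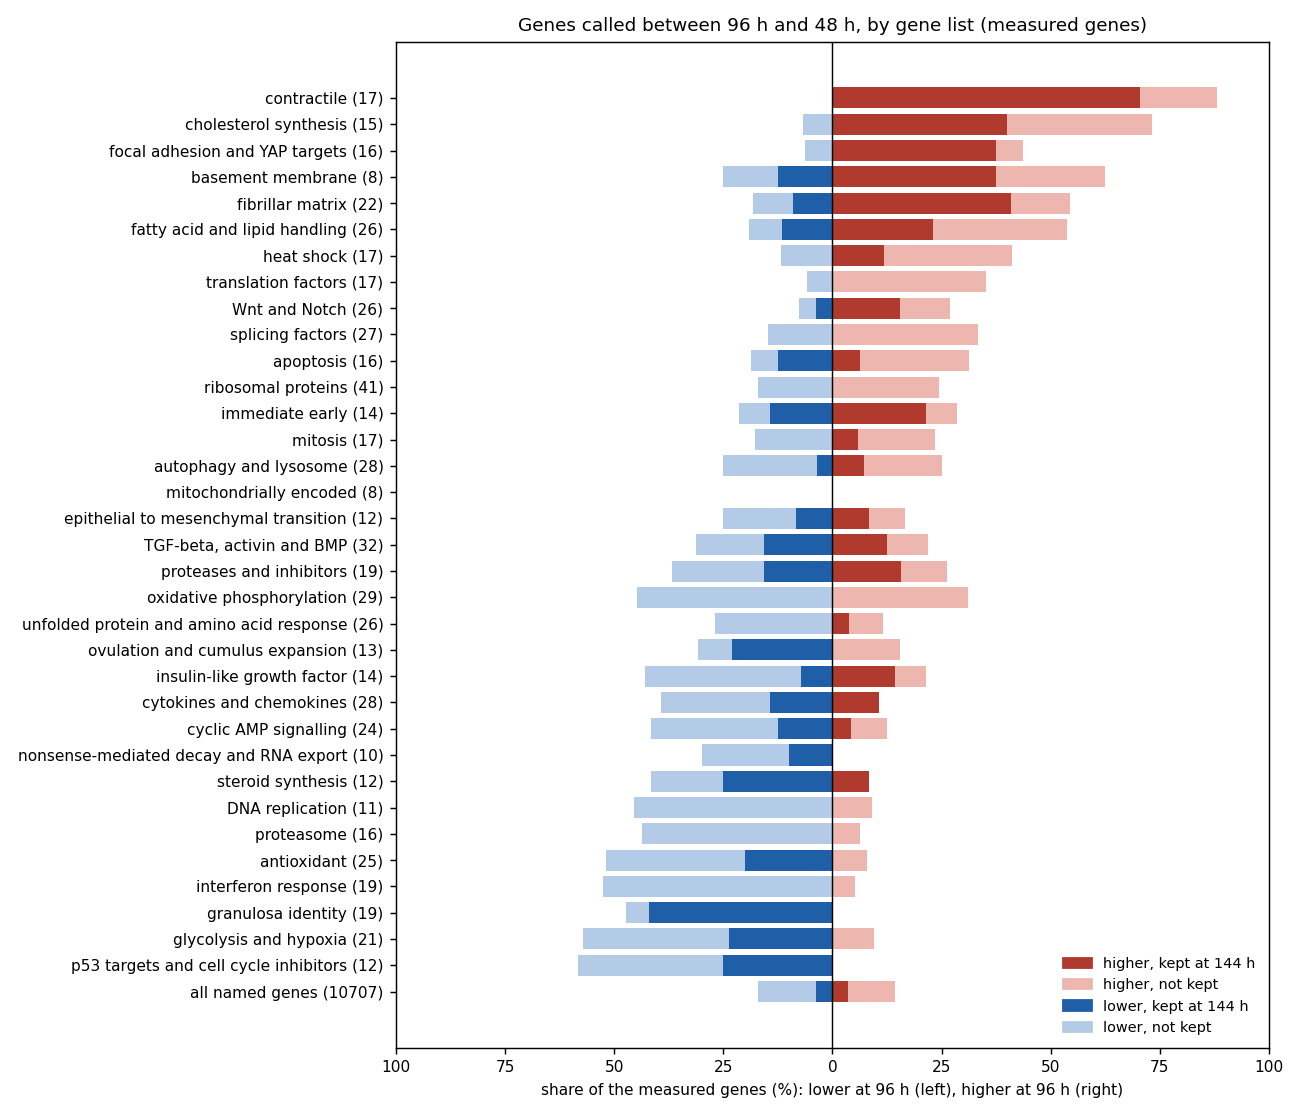
Share of the measured genes of each list (number in brackets) that was called lower at 96 h than at 48 h, to the left, and higher, to the right, in percent. Dark parts were kept at 144 h and pale parts were not. The contractile list, with 15 of 17 higher and 12 kept, stands at the top, and at the bottom 1819 of all 10707 named genes were lower and 1534 were higher.

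Of 15 measured genes that make and take up cholesterol 11 were higher and 1 was lower, with a median difference of 1.08, and 6 of the 11 were kept. The number of higher genes was 7 without either 96 h array. The number kept was 3 without either 48 h array and 10 without 144 h replicate 2. INSIG1, which holds back the sterol-sensing transcription factor and is itself one of its targets, stood at 5.14 and 5.43 at 48 h, 8.09 and 8.20 at 96 h and 6.80 and 6.36 at 144 h. The 3 times did not overlap, and 144 h lay between the other two (2.86 ± 0.17, adjusted p = 2.85e-05). FDPS, an enzyme of the mevalonate path, went from 6.16 to 8.42 and 7.06. CYP51, which removes a methyl group from lanosterol, rose by 1.66 (adjusted p = 0.00206), and its state at 144 h was unsettled.

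Of 26 genes of fatty acid and lipid handling, 14 were higher and 5 lower, with a median difference of 0.60 (9 higher without either 96 h array). LIPG, a secreted lipase, led them, from 6.21 and 6.42 at 48 h to 10.93 and 10.94 at 96 h and 10.49 and 9.69 at 144 h (4.62 ± 0.23, adjusted p = 1.7e-05). ACSL3, which activates fatty acids, stood at 5.48 and 5.26, then at 7.92 and 7.99, and returned to 6.48 and 5.80. PDK4, a brake on pyruvate oxidation that is high when cells burn fat, went the other way, from 6.98 and 6.88 to 3.43 and 3.24, and was at 4.48 and 3.92 at 144 h. PLIN2, the coat protein of lipid droplets, fell from 9.01 to 6.11 and was at 7.02 at 144 h. Of the higher genes 6 were kept, with 3 when 48 h replicate 1 or either 96 h array was left out, 2 without 48 h replicate 2 and 10 without 144 h replicate 2. Of the lower genes 3 were kept. LIPH, a lipase outside the list, was dim at 96 h and differed by -4.35.

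TXNIP, which binds thioredoxin and limits glucose uptake, fell and came back. It stood at 9.53 and 9.60 at 48 h, 5.97 and 5.85 at 96 h and 9.19 and 8.45 at 144 h. Both 96 h arrays lay below all arrays of 48 h and 144 h (-3.66 ± 0.22, adjusted p = 2.88e-05). ARRDC4, a relative of TXNIP that is switched on with it by glucose, followed the same course, from 8.88 and 8.86 to 5.94 and 6.04 and back to 8.58 and 7.77. At 144 h neither was called against 48 h, with adjusted p of 0.0799 and 0.119.

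Of 21 genes of glycolysis and the response to low oxygen, 12 were lower and 2 higher, with a median difference of -0.43. There were 6 lower genes without 48 h replicate 1 or 96 h replicate 2, and 5 without 96 h replicate 1. CA9, a carbonic anhydrase induced by low oxygen, fell by 1.64 and returned. KDM3A, a histone demethylase induced by low oxygen, fell by 1.33, and PFKP, a phosphofructokinase, by 1.00. HK1, which traps glucose in the cell, was the largest exception, with a rise from 9.06 to 10.67 and a return to 9.56. Of the lower genes 5 were kept, but 1 or 2 when any 1 array of 0 h, 48 h or 96 h was left out.

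Of 25 antioxidant genes 13 were lower and 2 higher, with a median difference of -0.46 (8 lower without 48 h replicate 1 or 96 h replicate 1). GSTA1 and TXNIP, described above, are both members. GSTA4, a glutathione transferase that clears lipid aldehydes, went from 10.92 to 8.27 and 9.71. GSTM3, of another class of glutathione transferases, went from 7.15 to 4.54 and was back at 7.11. Of the lower genes 5 were kept, or 3 without 48 h replicate 1 or 96 h replicate 1.

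Signals of inflammation were lower more often than higher at 96 h. Of 28 cytokine and chemokine genes 11 were lower and 3 higher, with a median difference of -0.08. Without 48 h replicate 1 or 96 h replicate 1 there were 7 lower genes, and without either 144 h array there were 6 higher. CXCL8 and CXCL2, attractants of neutrophils, fell by 2.28 (adjusted p = 0.00419) and 2.09 (adjusted p = 0.000292). Of 2 other features of CXCL2, 1 gave the same difference as the first, -2.0873, and the other gave -1.11. CXCL14 fell by 1.98 and counted as returned, although it stood at 5.88 at 144 h beside 6.91 at 48 h (adjusted p = 0.0598, limma). IL1R1, the receptor of interleukin 1, went from 8.44 to 6.69 and 7.32. All 3 higher genes were kept (5 without 144 h replicate 1), as were 4 of the lower ones, and this second number was 2 without 48 h replicate 1, 1 without 48 h replicate 2 and 7 without 144 h replicate 2.

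Interferon response genes were lower in 10 of 19 cases and higher in 1, with a median difference of -0.40, and 0 of the 10 were kept (1 without either 144 h array). Of these 7 had returned and 3 were unsettled. There were 5 lower genes without 48 h replicate 2 or without either 96 h array. MX1, an antiviral GTPase, went from 8.40 to 6.86 and 7.96 (adjusted p = 8.09e-05), and its 2 other features differed by -1.10 and -0.48. IFI44 fell by 1.46 and USP18, which restrains interferon signalling, by 1.41. MX2 was dim at 96 h and differed by -1.19 (adjusted p = 0.0143, and between 0.0597 and 0.0926 without 48 h replicate 2 or either 96 h array). DDX60, an antiviral helicase outside the list, had the largest fall that was undone. It stood at 7.81 and 7.69 at 48 h, 3.67 and 3.87 at 96 h and 6.81 and 7.48 at 144 h (-3.98 ± 0.21, adjusted p = 1.85e-05), and its second feature differed by -2.54.

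Markers of macrophages and leukocytes were also lower more often than higher at 96 h. Of 15 measured markers 7 were lower and 1 was higher, with a median difference of -0.59. The summed level of the 15 genes was between 70.1 and 72.2 on the 48 h arrays, 58.8 and 59.3 on the 96 h arrays and 58.8 and 66.2 on the 144 h arrays. Of the 15, 5 were dim at 48 h and 4 at 96 h. SLA-DRA, a class II antigen-presenting chain of the pig, stood at 7.07 and 7.07, then at 3.50 and 3.41, and at 4.74 and 6.02 at 144 h. FCER1G and TYROBP, signalling adaptors of myeloid cells, fell by 2.27 (adjusted p = 0.00416) and 2.10 (adjusted p = 0.000205). C1QB, a complement chain of macrophages, fell by 1.67 (adjusted p = 0.0188), and this call was lost without any 1 of the 4 arrays compared (adjusted p between 0.0722 and 0.0941). SRGN, a granule proteoglycan of blood cells that is no member of the list, was dim at 96 h and differed by -3.35. Of the lower markers 3 were kept, 4 were unsettled and 0 had returned, unlike in the interferon list. The number kept was 1 without 48 h replicate 1, 0 without 48 h replicate 2 and 6 without 144 h replicate 2. The part of such cells in the cytokine and interferon counts was not tested.

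Markers of oocytes, red blood cells and endothelium gave few calls. Of theca markers 37.5% were called, and of epithelial and ovarian surface markers 60%, beside 31.3% of all named genes. Of 9 oocyte markers 0 were called by limma (0 at an unadjusted p below 0.05), 3 were dim at 48 h, and GDF9 had means of 5.78 and 5.59, ZP3 of 3.35 and 3.54 and KIT of 8.97 and 9.16. Of 5 red blood cell markers 0 were called by limma (0 at an unadjusted p below 0.05), and 4 were dim at 48 h. Of 6 endothelial markers PECAM1 was called lower, by 0.47 (adjusted p = 0.0435), but not without any 1 of the 4 arrays compared (adjusted p between 0.0872 and 0.25). Of 8 theca markers 2 were higher and 1 lower, and these were COL1A1, ACTA2 and LHCGR, which other lists hold too. Of 5 epithelial and ovarian surface markers 3 were lower. KRT19, a keratin of simple epithelia, went from 8.82 and 8.55 to 6.08 and 6.12, and the 144 h arrays spread from 6.46 to 8.39. UPK1B fell by 1.27 (adjusted p = 0.0024). EPCAM was dim at 96 h and differed by -0.52 (adjusted p = 0.0083, and between 0.0539 and 0.0724 without 48 h replicate 2 or either 96 h array).

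The list for the epithelial to mesenchymal transition held 12 measured genes, 2 of them higher and 3 lower, 1 of each kept, with a median difference of 0.16 (1 lower without 48 h replicate 2 or either 96 h array). CDH11 and KRT19, given above, were the largest. S100A4, a calcium-binding protein of fibroblasts, rose from 5.99 to 7.70 and was at 5.64 at 144 h. PRRX1, a transcription factor of mesenchyme, had means of 7.36 and 8.51 (adjusted p = 0.0542) and 9.15 at 144 h.

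The TGF-beta family, which includes the activins and bone morphogenetic proteins that granulosa cells use to signal, moved both ways. Of 32 genes 7 were higher and 10 lower, at a median difference of -0.16. Together this was 53.1% of the list, beside 31.3% of all named genes. Without 48 h replicate 1 or 96 h replicate 2 there were 5 lower genes, and without 96 h replicate 1 there were 4. After LTBP2 and FST, the largest differences were in GREM1 and SMAD7. GREM1, which traps bone morphogenetic proteins, stood at 5.98 and 6.28 at 48 h, 8.78 and 8.69 at 96 h and 9.06 and 7.09 at 144 h (2.60 ± 0.51, adjusted p = 0.00645). SMAD7, an inhibitor inside the cell that the pathway itself induces, went from 5.73 to 7.58 and 6.32 (adjusted p = 6.72e-05). At 144 h 4 of the higher and 5 of the lower genes were kept. Without either 0 h array, and with the replicate number as a block, 2 of the higher genes were kept. Leaving out 1 array of 48 h or 96 h left 1 higher and between 1 and 3 lower genes kept.

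Of 26 Wnt and Notch genes 7 were higher and 2 lower, at a median difference of 0.14 (4 higher without either 48 h array or 96 h replicate 2, and 1 lower without 96 h replicate 1). SFRP1 and SFRP2, secreted inhibitors of Wnt, rose by 2.96 (adjusted p = 0.00419) and 0.86 (adjusted p = 0.0172). The call of SFRP2 was lost without any 1 of the 4 arrays compared (adjusted p between 0.0649 and 0.0975). FZD2, a Wnt receptor, went from 6.09 to 7.73 and 8.02, and HEY2, a target of Notch, from 8.85 to 10.04 and 9.43. Of the higher genes 4 were kept, or 1 without either 48 h array and 2 without either 96 h array.

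Of 14 genes of the insulin-like growth factor system 3 were higher and 6 lower, with a median difference of -0.28 (1 higher without 48 h replicate 2 or either 96 h array, and 3 lower without 96 h replicate 1). IGFBP7, a secreted binding protein, went from 9.63 to 11.17 and 10.38. IRS1, which links the receptor to its kinases, went from 8.12 to 6.88 and 7.59. PAPPA, a protease that frees growth factor from its binding protein, fell by 1.17 and returned. By 144 h 2 of the higher and 1 of the lower genes were kept. IGFBP3 fell by 1.20 (adjusted p = 0.0235), a call that was lost without any 1 of the 4 arrays compared (adjusted p between 0.0655 and 0.12).

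Immediate early genes, which respond within minutes to a stimulus, were higher in 4 of 14 cases and lower in 3, with a median difference of 0.01. Without either 0 h array 1 gene was lower, and without either 144 h array 5 were. Of the higher genes 3 were kept and of the lower genes 2, and the 3 became 1 or 0 when any 1 array of 0 h, 48 h or 96 h, or 144 h replicate 2, was left out. DUSP1, a phosphatase that turns off stress kinases, went from 7.41 to 9.29 and 8.26 (adjusted p = 0.000328). DUSP4, of the same family, went from 8.95 to 7.54 and 6.87, and EGR2, a zinc finger factor, from 7.92 to 6.57 and 6.12. The calls of DUSP4 and EGR2 were lost without any 1 of the 4 arrays compared, with adjusted p between 0.0741 and 0.0972 and between 0.0916 and 0.147, and 0 genes of the list were then lower. NR4A3, an orphan nuclear receptor, rose by 1.30 (adjusted p = 0.00805, and 0.0532 without 96 h replicate 2).

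Genes of dividing cells moved both ways, as all named genes did. In the mitosis list 41.2% of the members were called, beside 31.3% of all named genes. The mitosis list had 4 higher and 3 lower members of 17 and a median difference of 0.16 (1 lower without 48 h replicate 1 or either 96 h array). KIF23, a motor protein of cell division, rose by 0.99, CDC20, which starts anaphase, by 0.89, and ANLN, a protein of the contractile ring, by 0.77. PTTG1, securin, fell by 0.88. TOP2A had means of 6.48 and 6.68 (adjusted p = 0.462) and CCNB2 of 5.67 and 5.73 (adjusted p = 0.836). Of these 7 genes ANLN was kept, and it was not when either 48 h array was left out.

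Of 11 DNA replication genes 5 were lower and 1 higher, with a median difference of -0.06 (3 lower without either 96 h array). POLE2, a subunit of the leading-strand polymerase, fell by 1.58 and CCNE2, a cyclin of S phase entry, by 1.52. RFC3, a clamp loader subunit, fell by 1.13. All 3 counted as returned at 144 h, where CCNE2 stood at 5.47, beside 6.05 at 48 h. Genes of p53 targets and cell cycle inhibitors were lower in 7 of 12 cases and higher in 0 by limma (0 also at an unadjusted p below 0.05), with a median difference of -0.54. The 7 became 4 without 48 h replicate 2 or 96 h replicate 2 and 3 without 96 h replicate 1. PLK2, a stress-induced kinase, went from 10.41 to 8.98 and 9.75, CDKN2C, a cell cycle inhibitor, from 5.17 to 3.82 and 4.33, and CCNG1, a p53 target, from 10.30 to 9.05 and 10.15. MDM2, which degrades p53, fell by 0.79 (adjusted p = 0.0192, and between 0.0738 and 0.117 without any 1 of the 4 arrays compared). For CDKN1A, the classical p53 target, the difference was -0.41 (adjusted p = 0.0663). Of the 7 lower genes 3 were kept, but 0 or 1 when a 48 h or 96 h array was left out and 5 without 144 h replicate 1.

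Of 16 apoptosis genes 5 were higher and 3 lower, at a median difference of 0.16. The 5 became 3 without either 48 h array and 2 without either 96 h array. XIAP, an inhibitor of caspases, rose from 5.70 to 7.36 and was at 5.49 at 144 h. PMAIP1, which promotes cell death, rose by 1.46 and returned. BCL2L11, which also promotes cell death, fell from 8.61 to 7.01 and was at 7.51, and CFLAR, which blocks a starter caspase, fell by 1.02. Kept were 1 of the higher and 2 of the lower genes.

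Of 17 heat shock genes 7 were higher and 2 lower, at a median difference of 0.22 (0 or 1 lower without 48 h replicate 1 or either 96 h array). HSPB8, a small chaperone that works with autophagy, went from 4.14 to 6.62 and 5.21 (adjusted p = 3.02e-05). HSF1, the factor that switches on heat shock genes, rose by 1.26, the mitochondrial chaperone HSPD1 by 1.12 and the cytosolic HSP90AA1 by 1.05, and these 3 returned. Of the higher genes 2 were kept. For the response to unfolded proteins and amino acid shortage 26 genes were measured, of which 3 were higher and 7 lower, with a median difference of 0.07. Without 48 h replicate 1, 48 h replicate 2 or 96 h replicate 2 there were 2 lower genes, without 96 h replicate 1 there was 1, and without either 144 h array there were 5 higher. DDIT3, a stress factor that promotes cell death, went from 7.55 to 5.83 and was back at 7.43. ATF3 rose by 1.07 and was kept at 144 h, with a mean of 7.01, the 1 gene of the 10 called ones that was. SDF2L1, of the endoplasmic reticulum, rose by 0.98, and PSAT1, an enzyme of serine synthesis, fell by 0.86 (adjusted p = 0.0193, and between 0.0546 and 0.107 without any 1 of the 4 arrays compared).

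Of 28 autophagy and lysosome genes 7 were higher and 7 lower, at a median difference of 0.03. Together this was 50% of the list, beside 31.3% of all named genes. The 7 higher became 4 without 48 h replicate 2 or 96 h replicate 2 and 3 without 96 h replicate 1. ATP6V1A, a subunit of the proton pump, rose from 8.02 to 9.81 and was kept in part. WIPI1, an autophagy protein, rose by 1.11 and returned, and NPC1, which moves cholesterol out of lysosomes, fell by 1.11 and was kept. In all, 2 of the higher and 1 of the lower genes were kept.

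Genes of basic cell functions split into higher and lower members at 96 h, as all named genes did (14.3% higher and 17.0% lower). In these lists most of the called genes then went back. Of 41 ribosomal protein genes 10 were higher and 7 lower, at a median difference of 0.01 (6 higher without 96 h replicate 1). Both ways together this was 41.5% of the list, beside 31.3% of all named genes. Of these 17 genes 16 returned, 1 was unsettled and 0 were kept. RPS16 stood at 6.15 and 6.15 at 48 h, 8.68 and 8.99 at 96 h and 5.95 and 6.16 at 144 h (2.69 ± 0.15, adjusted p = 2.45e-05). RPL23A rose from 7.38 to 9.77 and was back at 7.33, and its second feature differed by 0.76. RPS27 fell from 9.64 to 7.50 and was back at 9.39. RPLP1 rose by 1.72. These are proteins of one particle, and the called members moved by up to 2.69 in one direction and 2.15 in the other between the same arrays. Ribosomal protein genes have many near-identical copies, and the sources used here do not say how the probes of each feature were chosen.

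The same split appeared in oxidative phosphorylation, where 9 of 29 genes were higher and 13 lower, at a median difference of -0.32. In all, 75.9% of that list was called, beside 31.3% of all named genes. Without 48 h replicate 1 or 96 h replicate 2 there were 7 lower genes and without 96 h replicate 1 there were 6. All 9 higher genes and 9 of the lower ones returned, and 0 were kept in the fit to all arrays and when any 1 was left out. ATP5G1, a membrane subunit of ATP synthase, went from 10.26 and 10.21 to 8.20 and 8.06, and back to 10.11 and 10.19. NDUFS6, a subunit of complex I, went from 6.13 and 6.21 to 8.21 and 8.21, and back to 6.21 and 6.24. NDUFB3 and NDUFB9, of the same complex, rose by 1.82 and 1.32. Of 8 genes encoded in the mitochondrial genome itself 0 were called by limma and 0 had an unadjusted p below 0.05 (ND2, ND3, ND5 and ND6 differed by -0.26, -0.21, 0.15 and -0.30).

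**Figure D4:**
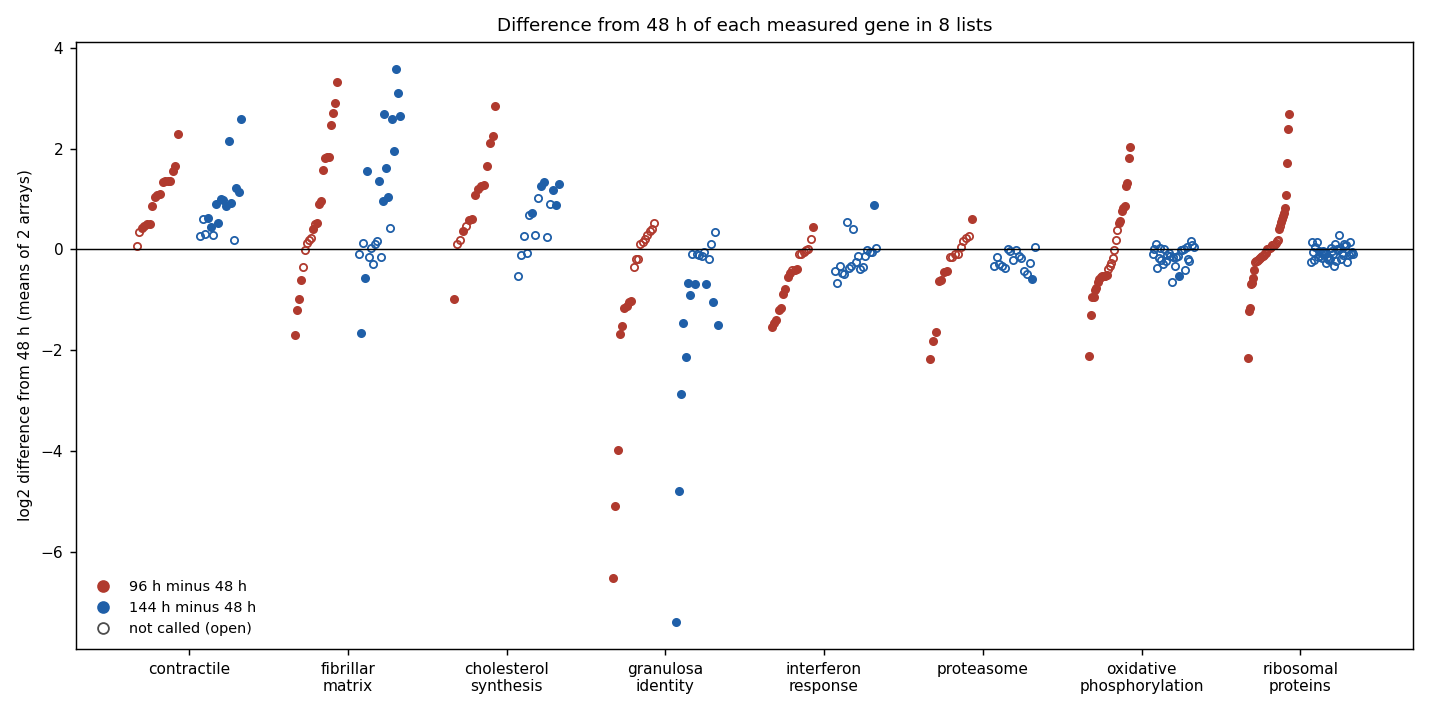
Log2 difference from 48 h of each measured gene in 8 lists, at 96 h (red) and at 144 h (blue), each point the difference between the means of 2 arrays, filled where called. Red and blue points of the contractile list both lie above 0, whereas the ribosomal genes spread from -2.15 to 2.69 at 96 h and lie near 0 at 144 h.

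Proteasome genes were lower in 7 of 16 cases and higher in 1, with a median difference of -0.14 and 0 kept (1 without 144 h replicate 1). There were 4 lower genes without 48 h replicate 1 or 96 h replicate 1 and 3 without 96 h replicate 2. PSME2, an activator subunit induced by interferon, fell from 8.80 to 6.62 and was at 8.47 at 144 h. The core subunits PSMB4 and PSMB6 fell by 1.82 and 1.65 and returned. PSMA6 fell by 0.62 (adjusted p = 0.0119, and between 0.064 and 0.0874 without 48 h replicate 1 or either 96 h array).

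Of 17 translation factors 6 were higher and 1 lower, with a median difference of 0.17 and 0 kept (1 kept without 144 h replicate 2, and 3 higher without 96 h replicate 2). EIF4A2, an RNA helicase of translation, went from 8.29 to 9.83 and 8.61. EIF5B rose by 1.15 and EIF3A by 1.06, and both returned. For EEF1A1, among the most abundant messages of most cells, the means were 11.89 and 11.60 (adjusted p = 0.099), and 2 other features differed by -0.22 and 0.42. Of 27 splicing factors 9 were higher and 4 lower, with a median difference of 0.13 and 0 kept. There were 5 higher genes without either 96 h array, 2 lower ones without 48 h replicate 2 or 96 h replicate 2 and 1 lower one without 96 h replicate 1. HNRNPM rose from 8.20 to 9.27 and was at 7.71 at 144 h. SNRPD3, a core protein of spliceosome particles, stood at 7.19 and 7.40, rose to 9.06 and 8.93 and then lay at 6.82 and 6.78. All 3 times were apart, with the 144 h arrays below those of 48 h (adjusted p = 0.0393), and SNRPF, another protein of that ring, reversed in the same way.

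Of 10 genes of nonsense-mediated decay and RNA export 3 were lower and 0 higher by limma, against 4 and 1 at an unadjusted p below 0.05, with a median difference of -0.12 and 1 kept (1 lower without 96 h replicate 1). The largest fall was 0.74 in EXOSC10, a nuclease of the exosome. Of 2 histone genes H2AFY fell by 0.71 and H2AFZ rose by 0.38 (adjusted p = 0.0387, lost without any 1 of the 4 arrays compared, adjusted p between 0.108 and 0.199).

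The largest changes that were undone by 144 h belonged to no single list. DPM3, a subunit of the enzyme that makes a sugar donor for glycosylation, stood at 9.62 and 9.44 at 48 h, 5.92 and 6.04 at 96 h and 9.18 and 9.48 at 144 h. ATG4C, an autophagy protease, went from 8.19 and 8.12 to 5.34 and 5.26 and back to 8.01 and 7.55. DCTN6, a subunit of dynactin, fell by 2.74 and returned. RRBP1, a ribosome-binding protein of the endoplasmic reticulum, went from 7.88 and 8.05 up to 10.67 and 10.69 and back to 8.39 and 7.95. EIF1B rose by 2.57 and MSANTD4 by 2.41, with differences from 48 h of -0.22 and 0.00 left at 144 h. In each of these genes both 96 h arrays lay apart from all 4 arrays of 48 h and 144 h.

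Of the genes that reversed, 8 each way were followed. TMEM141 had the largest change among them, from 8.83 and 9.05 at 48 h to 7.14 and 6.85 at 96 h and 9.68 and 9.60 at 144 h. CFI, complement factor I, went from 4.77 and 4.59 to 3.48 and 3.59 and to 5.45 and 5.27. FOLR2, a folate receptor of macrophages, fell by 1.11 and then stood 0.63 above 48 h. ITGA4, an integrin of migrating cells, rose from 7.45 and 7.74 to 8.82 and 8.82 and fell to 6.61 and 5.46. Its call at 96 h (adjusted p = 0.0218) was lost without any 1 of the 4 arrays compared (adjusted p between 0.0587 and 0.12). CAVIN2, of the coat of caveolae, rose by 0.60 and then stood 1.08 below 48 h, with the first call lost in the same way (adjusted p between 0.117 and 0.169). DCLRE1B, ISLR, MAP1LC3A, NME6 and PLGRKT fell by between 0.76 and 1.20, and CACNB2, KIF21A, RPIA and TMEM65 rose by between 0.64 and 0.92 (a second feature of KIF21A differed by 0.12). The call of ISLR was lost without 48 h replicate 2 or either 96 h array (adjusted p between 0.0512 and 0.125).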

How the data were processed

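The deposited table holds log2 intensities that the authors made by RMA, per the submitters' processing notes, for 27558 features on 8 arrays. RMA brings the arrays to a common distribution, so a shift of most transcripts at once is hidden. The sources used here do not give its software or version. Nothing further was normalized or filtered, and no value was missing.

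Groups and replicate numbers came from the labels. Gene names came from the platform annotation in GEO: 11735 features had 1 symbol, 612 several and 15211 none, and 6 symbols were updated. Of the 612, 239 repeated 1 symbol and 373 held different symbols, and all were left out of the gene counts. The feature with the highest mean stood for a gene. The linear model had a mean for each time and used all 8 arrays (limma 3.58.1 under R 4.3.3, lmFit and eBayes, two-sided, 4 residual and 3.98 prior degrees of freedom). The median SE was 0.143. The steps were tested on simulated data.

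Members and the 41 gene lists, with 676 measured genes, were chosen with earlier results of these data known. Named were the 20 largest rises and falls, 8 each way that were kept, returned or reversed, up to 4 genes per list with the largest difference, and a set of marker genes. Uncharacterised symbols are given by count. Alternatives were other scalings, a filter on dim features, eBayes with trend and robust, fits to fewer arrays, the replicate number as a block, stricter thresholds and leaving out each array.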

Additional observations from a re-analysis of the deposited data

How the results depend on the processing

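Counts of called features depended on the threshold and on the number of arrays. At an adjusted p below 0.01, 2025 features were higher and 2663 lower, and 393 and 426 were kept. With a fold of at least 2 in each comparison the counts were 1123, 1546, 282 and 301. Leaving out 1 array at a time gave between 1818 and 4778 higher and between 2380 and 5516 lower features, with 386 to 1112 and 420 to 1331 kept. The lone array is then assumed to vary like the other times. With the replicate number as a replicate block, 3668 were higher and 4409 lower, with 770 and 885 kept. In the gene lists the block moved 8 counts by over 1.5 times: the kept higher TGF-beta genes went from 4 to 2, and the other 7 were counts of 2 or fewer that moved by 1 gene. Of the genes named by the rule, NR2F2 (-0.49, adjusted p = 0.0368) and SMG6 (-0.43, adjusted p = 0.0348) gained a call under the block and 0 lost one. Over all features, deviations of same-numbered arrays correlated at -0.0138 between 48 h and 96 h and -0.0382 between 96 h and 144 h. Between 48 h and 144 h the correlation was 0.188. With 2 arrays per time, these values cannot say whether same-numbered arrays share animals or a culture. Median centring, quantile normalization, cyclic loess, the filter on dim features and eBayes with trend and robust gave 3447 to 4118 higher and 4029 to 4453 lower features. The share of higher among called features ran from 42.1% to 50.6% over all settings. No named gene that was called in the fit to all arrays changed direction. Genes not called there were not checked for this. Signal over background limits AMH, ANO3, C7, DAPL1, EPCAM, LIPH, MX2 and SRGN, which were dim at 96 h. A motif count in promoters was not run, since no promoter table was given.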

Other observations

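Some of the largest falls had no place in the gene lists. SPINK5, a protease inhibitor of epithelia, went from 8.34 at 48 h to 4.61 at 96 h and 4.80 at 144 h. ADGRL4, an adhesion receptor known from endothelium, went from 8.61 and 8.53 to 4.79 and 4.87 and was at 5.62 and 5.70 at 144 h. FSTL5, a follistatin-like protein, differed by -3.79 ± 0.43, and its 144 h arrays spread from 3.26 to 4.81. MSMB, a secreted protein of glands, went from 9.97 to 6.71 and 8.93. CNTN5, a neural adhesion protein, fell by 3.39. C7, a complement component, ANO3, a membrane protein of the anoctamin family, and DAPL1 were dim at 96 h and differed by -3.36, -3.58 and -3.21. All of these were called at 144 h against 48 h in the same direction.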
